A study of Mus musculus with 12 samples.

Results

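Assay for transposase-accessible chromatin with sequencing (ATAC-seq) cuts and tags DNA that is not wrapped tightly around nucleosomes, and a peak marks a stretch where the cuts pile up. The regions described here are the accessible regions that lie in exons of protein-coding genes, away from promoters. Peaks of the 12 libraries were merged wherever they overlapped by at least 1 bp, which gave 263785 regions. A region was kept when it lay on chromosomes 1 to 19, its centre fell in an exon of a protein-coding gene, and it was more than 1 kb from every annotated transcription start site (TSS). This left 7691 exonic regions, beside 99919 regions with their centre in an intron, 93221 between genes and 43821 at promoters. No measured value entered the rule apart from the presence of a peak.

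The cells were primary cortical neurons from C57BL/6 mouse embryos of embryonic day 18. Neurons of the PBS group received buffer, and the other 3 groups received preformed fibrils of α-synuclein (PFF), which seed aggregation of the neurons' own α-synuclein. Treatment lasted 7 days in every group. The PFF+MLi-2 group also received MLi-2, an inhibitor of the Parkinson's disease kinase LRRK2, for the last 5 days, and the PFF+Rab5 ASO group received antisense oligonucleotides against transcripts of Rab5a and Rab5b, early endosome GTPases, for the last 3 days. Each group had 3 libraries labelled as biological replicates, all of batch 1, and 5 comparisons were made. A free-text label of the MLi-2 and ASO libraries says PBS. Their titles, their treatment labels and the design text all say PFF, which was followed. The comparisons ask which accessible exonic regions differ with fibrils, and whether MLi-2 or the Rab5 ASO alters that. No group received a control oligonucleotide, and none received MLi-2 or ASO without fibrils. An effect of lower Rab5 thus cannot be told apart from one of adding oligonucleotide.

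An exon is the part of a gene that is kept in the mature transcript. Its coding sequence is read into protein, and its untranslated regions (UTRs) flank the coding sequence. Most accessible chromatin of a neuron lies at promoters and at enhancers in introns or between genes. Exonic DNA can be accessible too, and some coding exons are known to act as enhancers of their own or a neighbouring gene while also encoding protein.

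Markers of neurons were accessible as labelled: all 6 excitatory cortical markers, 5 of 5 general neuronal markers and 4 of 5 interneuron markers had a peak near the TSS in all 12 libraries. So did 5 of 5 astrocyte and 4 of 7 oligodendrocyte lineage markers, whereas 0 of 5 microglial and 1 of 3 endothelial markers did. The lists held 137417 to 184717 peaks per library. Read totals were not given in the sources used here, but the height of a peak in fragments could be recovered, and from it a relative depth, which ran from 0.775 to 1.31. The Rab5 ASO libraries lay above the others, with a mean of 1.22 ± 0.149 (SD, n = 3) against 0.843 ± 0.0728 in PFF. Their smallest peaks were also narrower, 53 to 59 bp against 62 to 66 bp in the other 9 libraries. These differences run along with every comparison that involves the Rab5 ASO group. Relative depth was also 0.957 to 1.03 in PFF+MLi-2 and 0.775 to 0.919 in PFF. The peaks numbered 145497 to 147991 in PFF+MLi-2 and 151900 to 172377 in PFF. Median peak width was 135 to 139 bp in PFF and 127 to 134 bp in PBS. The part of all these differences in the results was not tested.

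The sequences of 11 coding-exon regions on which the results turn are shown first. Each is the stretch around the summit of the region, read from GRCm38 on the sense strand of the gene, 5′ to 3′, with coding bases in capitals and intron in lower case. Fetub (chr16:22929648-22929828, plus strand, exon 3 of 8) and Slc1a6 (chr10:78812782-78812962, plus strand, exon 9 of 10) stand for the highest coding regions, and Klhl31 (chr9:77655291-77655471, plus strand, exon 3 of 3) for the widest.
Fetub: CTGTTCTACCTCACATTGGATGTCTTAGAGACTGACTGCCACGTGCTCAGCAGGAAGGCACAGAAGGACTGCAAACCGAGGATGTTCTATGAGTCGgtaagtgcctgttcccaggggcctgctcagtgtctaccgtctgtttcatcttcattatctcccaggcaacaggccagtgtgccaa
Slc1a6: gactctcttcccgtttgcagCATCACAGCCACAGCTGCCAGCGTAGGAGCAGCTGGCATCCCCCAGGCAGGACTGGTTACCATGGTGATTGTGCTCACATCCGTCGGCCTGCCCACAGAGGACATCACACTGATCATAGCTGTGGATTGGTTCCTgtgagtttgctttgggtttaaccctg
Klhl31: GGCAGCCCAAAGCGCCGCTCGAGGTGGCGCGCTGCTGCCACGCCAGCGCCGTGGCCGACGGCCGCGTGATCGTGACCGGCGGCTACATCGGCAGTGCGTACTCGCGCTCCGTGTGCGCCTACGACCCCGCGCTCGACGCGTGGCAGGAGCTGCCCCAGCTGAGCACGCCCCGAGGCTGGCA
Fetub encodes the plasma protease inhibitor fetuin-B, Slc1a6 the neuronal glutamate transporter EAAT4, and Klhl31 a kelch-repeat protein of muscle. The Klhl31 stretch was 74.6% G or C and held 29 CpG dinucleotides, against 4 CpG in each of the other 2. The boundary between exon and intron is visible inside the Fetub and Slc1a6 stretches, so the accessible DNA reached past a splice site in both.

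The next 4 regions had called differences in height after Rab5 ASO. Macf1 (chr4:123401348-123401528, minus strand, exon 54 of 93) and Tmc5 (chr7:118649435-118649615, plus strand, exon 7 of 18) fell, and Wdr49 (chr3:75381897-75382058, minus strand, exon 5 of 15) and Exoc3 (chr13:74192750-74192893, minus strand, exon 4 of 13) rose.
Macf1: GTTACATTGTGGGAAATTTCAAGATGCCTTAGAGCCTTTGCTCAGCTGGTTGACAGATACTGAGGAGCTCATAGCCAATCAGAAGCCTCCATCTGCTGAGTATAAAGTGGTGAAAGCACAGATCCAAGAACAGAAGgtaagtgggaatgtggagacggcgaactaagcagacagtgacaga
Tmc5: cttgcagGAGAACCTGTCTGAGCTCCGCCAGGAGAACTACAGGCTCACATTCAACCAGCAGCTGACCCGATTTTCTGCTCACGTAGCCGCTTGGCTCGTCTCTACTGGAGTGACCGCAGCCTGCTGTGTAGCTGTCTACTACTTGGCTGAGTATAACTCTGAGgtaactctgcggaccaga
Wdr49: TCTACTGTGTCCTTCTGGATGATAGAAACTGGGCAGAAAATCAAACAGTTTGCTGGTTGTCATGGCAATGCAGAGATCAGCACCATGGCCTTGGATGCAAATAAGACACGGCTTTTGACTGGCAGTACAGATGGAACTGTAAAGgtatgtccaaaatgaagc
Exoc3: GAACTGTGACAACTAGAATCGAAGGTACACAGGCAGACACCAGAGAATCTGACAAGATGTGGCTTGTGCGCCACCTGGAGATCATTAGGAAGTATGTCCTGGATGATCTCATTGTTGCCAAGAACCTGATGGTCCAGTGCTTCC
Macf1 encodes a giant linker of microtubules and actin, Tmc5 a transmembrane channel-like protein, Wdr49 a WD-repeat protein, and Exoc3 a subunit of the exocyst, which tethers secretory vesicles to the plasma membrane. G and C made up 46.4% of the Macf1 stretch, 54.7% of the Tmc5 stretch, 44.4% of the Wdr49 stretch and 48.6% of the Exoc3 stretch.

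The last 4 stand for regions present in one group and absent from another, and for the lowest p-values where no region passed. Pdlim3 (chr8:45917463-45917625, plus strand, exon 6 of 7) had a peak in every PFF and no PBS library. Cd200r4 (chr16:44833272-44833421, plus strand, exon 4 of 6) had a peak in every PFF and no MLi-2 or ASO library. Akap13 (chr7:75726990-75727169, plus strand, exon 23 of 37) had a peak in all libraries but those of the ASO group, and Stat2 (chr10:128290789-128290957, plus strand, exon 23 of 24) was among the 3 members with the lowest p-values both in PFF against PBS and in PFF+MLi-2 against PFF.
Pdlim3: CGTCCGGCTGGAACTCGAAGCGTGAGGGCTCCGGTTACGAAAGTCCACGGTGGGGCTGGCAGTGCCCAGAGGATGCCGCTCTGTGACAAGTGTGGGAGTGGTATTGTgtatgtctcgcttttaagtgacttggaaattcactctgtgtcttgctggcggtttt
Cd200r4: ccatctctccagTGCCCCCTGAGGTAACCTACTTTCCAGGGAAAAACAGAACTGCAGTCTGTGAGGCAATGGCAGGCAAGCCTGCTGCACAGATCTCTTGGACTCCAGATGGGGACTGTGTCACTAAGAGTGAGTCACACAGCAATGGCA
Akap13: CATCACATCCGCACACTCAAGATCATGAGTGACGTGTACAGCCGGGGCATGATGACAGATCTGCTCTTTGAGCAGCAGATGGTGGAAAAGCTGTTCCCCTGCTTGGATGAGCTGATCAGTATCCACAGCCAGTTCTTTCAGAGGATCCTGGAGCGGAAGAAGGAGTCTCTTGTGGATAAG
Stat2: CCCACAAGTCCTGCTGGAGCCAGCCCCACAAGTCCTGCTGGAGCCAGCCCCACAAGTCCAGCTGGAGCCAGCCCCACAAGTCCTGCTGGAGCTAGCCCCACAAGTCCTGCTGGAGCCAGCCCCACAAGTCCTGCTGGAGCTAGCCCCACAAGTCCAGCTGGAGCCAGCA
Pdlim3 encodes a protein of the muscle Z-disc, Cd200r4 an immune receptor of the CD200 receptor family, Akap13 an anchor of protein kinase A, and Stat2 a transcription factor of the interferon response. The Stat2 stretch is a tandem repeat, in which 95.9% of bases match the base 48 positions further on. Whether reads from similar sequence elsewhere in the genome add to its peak was not tested. Among the 11 stretches the next highest such value, at any shift of 5 to 60 positions, was 39.3%.

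The 7691 exonic regions were spread over 4947 genes, which is 23.8% of the 20780 protein-coding genes annotated on chromosomes 1 to 19. Most of these genes, 3174, had a single region, 100 had 5 or more, and 96 regions lay in exons of more than 1 gene. Syne1, which encodes the nuclear envelope protein nesprin-1, had the most with 13, 5 of them found in all 12 libraries. Zbtb20, a transcription factor of hippocampal and cortical neurons, had 12 and Ino80d, a subunit of the INO80 chromatin remodeller, had 9, with 2 and 0 of these in all 12 libraries. Creb5, Dock4, Dst and Lrp8 had 8 each.

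By position in the gene, 3478 regions (45.2%) lay in a 3′ UTR, 2922 (37.99%) in coding sequence, 1195 (15.5%) in an exon that belongs to a non-coding transcript of the gene, and 96 in a 5′ UTR. Of the 3′ UTR regions 97.0% lay in the last exon. The median distance to the nearest TSS was 6120 bp, with quartiles of 2750.5 and 13035 bp. The whole region fitted in the exon for 6167 members (80.2%), a share that was 96.0% for 3′ UTR regions and 56.6% for coding regions. The highest point of the peak was in the exon for 96.7% of members. The centre of 305 members (3.97%) also lay within a gene not annotated as protein-coding, introns included.

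Around the summit, exonic regions were richer in G and C than other regions outside promoters. The median GC content over the summit and 100 bp on either side of it was 51.7% in exonic regions, 47.8% in intronic and 46.8% in intergenic regions and 57.7% at promoters. Coding regions stood at 56.2% and 3′ UTR regions at 50.2%. The median ratio of observed to expected CpG was 0.276 in exonic regions, 0.196 in intronic, 0.190 in intergenic and 0.5002 in promoter regions. These are descriptions of the reference sequence, and base composition differs between exons and introns whether or not the DNA is accessible.

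In the same windows 10 sequence motifs were searched on both strands. CCAGGNGGC, the core of the motif of the insulator protein CTCF, was in 3.52% of exonic regions, against 1.66% of intronic, 1.67% of intergenic, 3.33% of promoter and 1.99% of all regions of chromosomes 1 to 19. The share was 4.69% in coding regions, and it was 5.46% in exonic regions found in all 12 libraries against 2.71% in those with a peak in 1. CAGCTG, an E-box of neurogenic and myogenic factors, was in 20.7% of exonic regions and 17.0% of all regions. GGGCGG, the GC-box of the SP family, was in 9.35% of exonic regions, 4.46% of intronic regions and 9.44% of all regions. TGANTCA, the element of the AP-1 factors Fos and Jun, was less frequent, in 8.83% of exonic and 6.06% of coding regions against 10.8% of all regions and 11.9% of intronic ones.

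The other 6 motifs were counted in the same way. CAGATGG, an E-box of the NEUROD family, was in 10.5% of exonic and 9.94% of all regions, and CACGTG, the E-box that TFEB, TFE3 and MYC bind, in 3.95% and 3.52%. GTTGCCAT, part of the motif of the RFX family, was in 2.197% and 2.14%, and CCGGAAGT, an ETS-family element, in 0.390% and 0.512%. TGACGTCA, the cAMP response element, was in 0.273% of exonic and 0.405% of all regions, and TTCAGCACC, the start of the REST element, in 0.351% and 0.295%. Whether base composition, which differs between the classes of region, sets these shares was not tested. A match is not a binding site, and shared letters let some motifs overlap others. In the printed stretches, Fetub holds CACGTG, Slc1a6, Klhl31, Tmc5, Macf1 and Stat2 hold CAGCTG, Wdr49, Akap13, Cd200r4 and Macf1 hold CAGATGG, Cd200r4 also holds TGANTCA, and Exoc3 holds CCAGGNGGC.

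**Figure D1:**
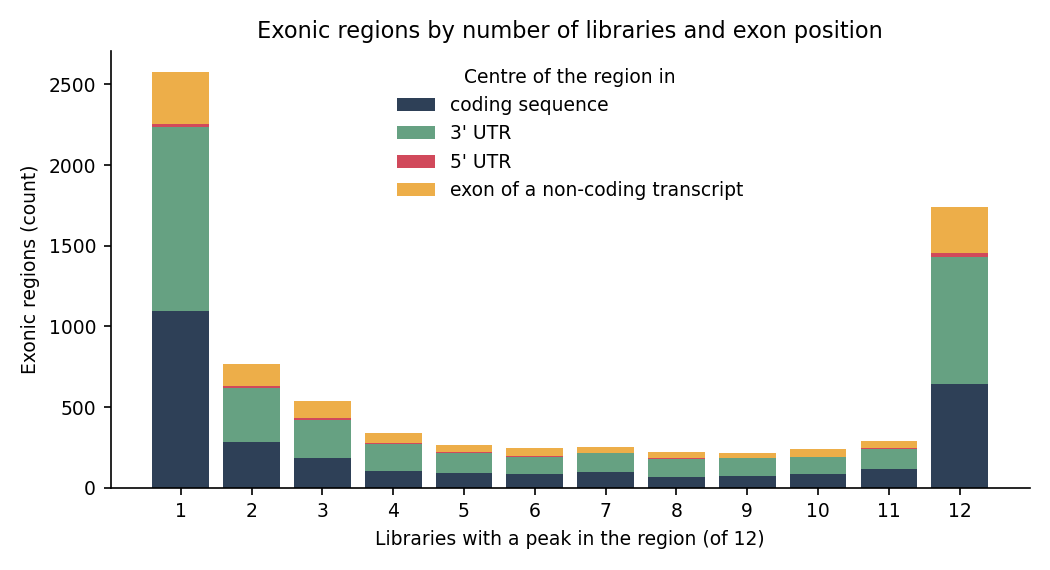
The horizontal axis is the number of the 12 libraries with a peak in a region, the vertical axis the count of exonic regions, and the colours stack the position of the region's centre in the gene. The bars for 1 library (2579 regions) and 12 libraries (1740) stand above all others, with every position present in both.

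Exonic regions recurred across libraries somewhat less than other regions. A peak was present in all 12 libraries for 1740 exonic regions (22.6%), in a single library for 2579 (33.5%) and in 2 to 11 libraries for 3372 (43.8%). Intronic regions had 22.9% in all 12 and 28.5% in 1, intergenic regions 24.4% and 27.8%, and promoter regions 46.6% and 18.6%. Coding regions were seen in a single library most often (37.4%), 3′ UTR regions in 32.9% and exons of non-coding transcripts in 27.2%. Members seen in 1 library came from every library, 102 to 403 each, with the most in PFF+Rab5 ASO replicate 1. As peaks in single libraries were low and narrow, with a median of 12 fragments and 66 bp against 23.5 fragments and 289 bp for members in all 12, absence of a peak means absence at this depth.

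Peak height is given below as the fold percentile: the rank of a peak's fold over local background within its own library, from 0 for the lowest to 100 for the highest. Because the fold is taken over local background, a peak can hold many fragments and still rank low. Exonic peaks held more fragments than intronic or intergenic peaks. Their library medians averaged 17.1 fragments, against 15.75 in intronic and 15.4 in intergenic peaks. Averaged over the 12 libraries, the median exonic peak ranked at 44.1 ± 1.07 (SD, n = 12), against 47.7 for intronic and 50.1 for intergenic peaks. The exonic value was lower in 12 of 12 libraries in both comparisons, with mean differences of -3.599 and -5.94 percentile points (exact sign-flip test, two-sided, p = 0.000488, the smallest that 12 libraries allow, and adjusted p = 0.000732 over 6 such comparisons). An exonic region had a peak in 45.3 ± 4.91% of cases per library, a difference of -2.44 percentage points from an intronic region, lower in 12 of 12 libraries (adjusted p = 0.000732, the same exact test), and of -3.54 from an intergenic region, lower in 11 of 12 (adjusted p = 0.00176). These shares move with how peaks are taken: with equal numbers of top peaks per library the differences were -1.09, lower in 9 of 12 libraries, and -2.53, lower in 10 of 12 (adjusted p = 0.00645 each, exact test), and with regions merged only at an overlap of 50 bp -1.58 and -2.45. Exonic peaks were 119 ± 8.31 bp wide, with a difference of -3.92 bp from intergenic peaks, narrower in 12 of 12 libraries (adjusted p = 0.000732, exact test). Against intronic peaks the difference in width was -0.542 bp (exact p = 0.223), which did not pass the test.

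**Figure D2:**
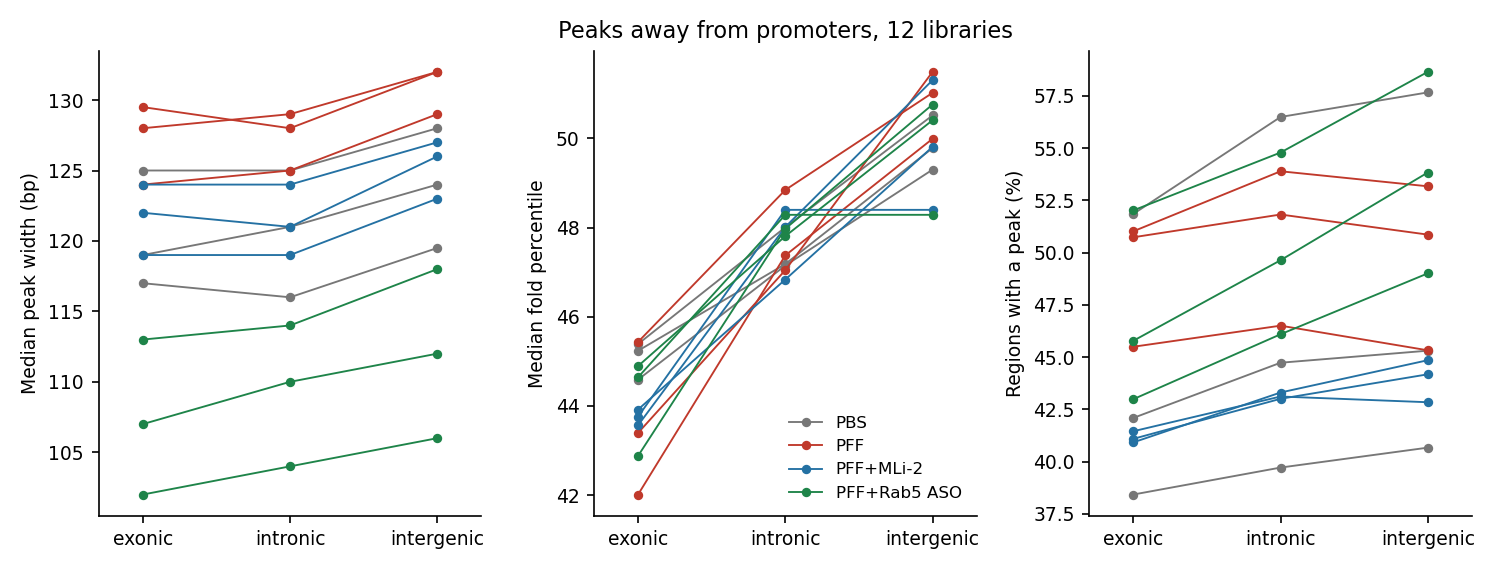
Each line is 1 library coloured by group, and the vertical axes, which do not start at 0, give the median peak width in bp, the median fold percentile and the share of regions with a peak for exonic, intronic and intergenic regions away from promoters. All 12 lines rise from exonic to intronic in the middle and right panels, while in the left panel the exonic and intronic widths lie close and the 3 ASO libraries are the narrowest.

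The highest exonic regions were chosen by their mean percentile over the 12 libraries, so high values in every group follow from the choice. Lars2, a mitochondrial leucyl-tRNA synthetase, had the highest, in its 3′ UTR at chr9:123461795-123462226, where 80 to 109 fragments piled up and the percentile was 99.8 or more in all 12 libraries. The next were Sf3b5, a small subunit of the splicing factor SF3B, and Skap2, an adaptor of Src-family kinases, followed by Nup160 of the nuclear pore and the uncharacterised 4930564D02Rik. Bcat2, Fetub, Cryzl1, Slc1a6 and Dgki completed the first 10. Slc1a6 ranked at 97.9, 98.2 and 99.4 in PBS, 99.88, 99.3 and 99.7 in PFF, 99.1, 97.6 and 96.4 with MLi-2 and 98.5, 98.7 and 99.1 in the PFF+Rab5 ASO libraries. The widest members were 1417 bp in Lor, which encodes the epidermal protein loricrin, 1385 bp in an exon shared by B430305J03Rik and Rap2b, 1139 bp in Ccdc92b, 1080 bp in Vgf, a neuropeptide precursor, and 1048 bp in Klhl31. Whether reads from near-identical copies elsewhere in the genome contribute to any of these peaks was not tested.

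The distance of 1 kb is a set threshold, and no test compared the regions on either side of it. Within 1 kb of a TSS lay 14153 further regions with an exonic centre, 61.6% of which were found in every library, and their median percentile was 66.3. The 176 of them at 900 to 1000 bp had a median percentile of 27.0 and the 180 members at 1000 to 1100 bp had one of 21.2. The nearest members, in the immediate-early gene Ier5 and the cardiac myosin gene Myh7, were 1003 bp away and had a peak in 8 and 3 libraries.

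Treatment with fibrils alone was compared first. Of all the peaks of a library, exonic regions took 2.52%, 2.58% and 2.55% in the 3 PFF libraries (2.55 ± 0.0295%, mean ± SD, n = 3), against 2.42 ± 0.0315% in PBS, 2.42 ± 0.0280% in PFF+MLi-2, then 2.40 ± 0.0475% in PFF+Rab5 ASO. Every PFF library was above every library of the other groups, in a measure that was not among those planned. In bulk libraries a change in the makeup of the cells and a change within cells cannot be told apart. The exact permutation test of 3 against 3 gave p = 0.1, the smallest it can reach, for PFF against PBS, PFF+MLi-2 against PFF and PFF+Rab5 ASO against PFF, so the design cannot pass a threshold of 0.05. PFF+MLi-2 and PBS overlapped (exact p = 0.9), as did PFF+Rab5 ASO and PBS (exact p = 0.6). With equal numbers of top peaks per library the PFF libraries were above the PBS libraries by 0.082 percentage points in place of 0.132, and the PFF+Rab5 ASO libraries no longer overlapped the PBS libraries, with a difference of -0.104 (exact p = 0.1).

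Height was tested on the regions found in all 12 libraries, 72465 in all and 1740 of them exonic, with limma on normal scores of the within-library ranks of fold. An effect is a difference between group means of these scores, in units of about 1 SD of peak heights within a library. Between PFF and PBS 0 exonic regions passed an adjusted p of 0.05, as did 0% of all regions tested. At an unadjusted p under 0.05 there were 173 exonic regions (9.94%), against 9.72% of all regions. The lowest p-values among the members belonged to Dpp4, Rapgef2 and Stat2, each with a limma adjusted p of 0.217. Rapgef2, an exchange factor for the GTPase Rap1, ranked at 2.73, 7.73 and 26.3 in PBS and at 68.9, 58.9 and 77.3 in PFF in its coding exon 22 of 24, a difference of 1.77 ± 0.33 (SE). The same Rapgef2 region was called lower in PFF+Rab5 ASO than in PFF (-1.19 ± 0.27, limma adjusted p = 0.0426), a comparison that shares the PFF libraries. Dpp4, a cell surface peptidase, ranked at 35.5, 6.14 and 5.68 in PBS and at 59.3, 64.3 and 61.1 in PFF (difference 1.37 ± 0.24). The groups did not overlap in either region, which was also so for 14.3% of exonic and 15.1% of all regions tested. Neither region passed between PFF and PBS.

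Regions that came and went with fibrils were counted as gained, with a peak in all 3 libraries of the first group and none of the second, or lost, the reverse. PFF against PBS gained 90 and lost 21 of the 6142 exonic regions with a peak in either group (1.47% and 0.342%), where all regions gained 1.1% and lost 0.405%. With equal numbers of top peaks per library the counts were 53 gained and 29 lost. When each of the 6 libraries was left out in turn, exonic regions gained outnumbered those lost in 6 of 6 repeats, but by as little as 119 to 92 without PBS replicate 2 and 119 to 69 without PBS replicate 3. Over all regions the balance turned without PBS replicate 2, with 3195 gained and 3433 lost. The members that changed held a median of 13 fragments where gained and 14 where lost. The median was 13.5 over all exonic regions and 23.5 in those found in all 12 libraries.

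Regions gained or lost are named below by their mean rank over every library with a peak, those of the other groups included. Among the 4 gained regions with the highest such ranks was the coding exon of Pdlim3 printed above. It was absent from PBS, ranked at 66.04, 49.99 and 33.6 in PFF, was present in 2 of the 3 PFF+MLi-2 libraries (7.12 and 62.2), and ranked at 81.8, 70.3 and 72.3 in PFF+Rab5 ASO. Zfp367, a zinc finger protein, was gained in its 3′ UTR (29.98, 62.1 and 12.2 in PFF) and was absent from all 3 PFF+MLi-2 libraries. Col28a1, a collagen chain, was present in every PFF, PFF+MLi-2 and PFF+Rab5 ASO library, and Ice2, a subunit of the little elongation complex, in every PFF and no ASO library. Regions lost in PFF included the 3′ UTR of Oxgr1, the receptor for 2-oxoglutarate, at 69.2, 29.9 and 56.96 in PBS and 54.6, 55.4 and 56.6 in PFF+MLi-2 with no peak in PFF or PFF+Rab5 ASO. The others named by rank were Mtx3, a mitochondrial outer membrane protein, Adam22, the neuronal receptor of LGI1, and Zmat4, a zinc finger protein.

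**Figure D3:**
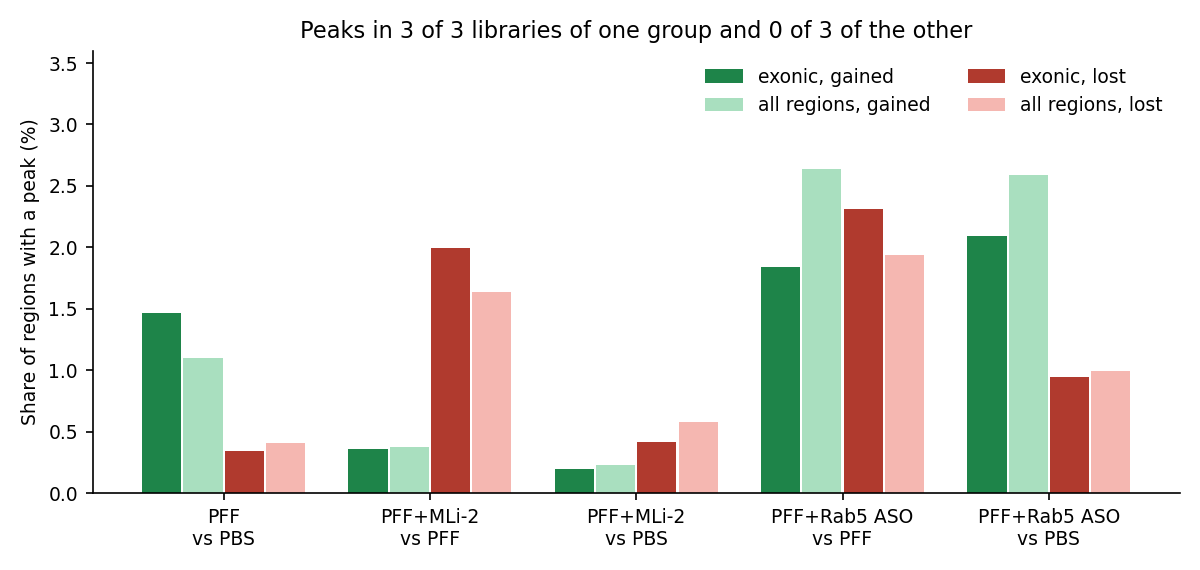
Bars give, for each of the 5 comparisons, the percent of regions with a peak in either group that had one in 3 of 3 libraries of the first group and 0 of 3 of the second (gained) or the reverse (lost), for exonic regions in dark and all regions in light colours. In PFF+Rab5 ASO against PFF the exonic bar is taller for lost (2.31%) than for gained (1.84%), and the bars of all regions have the opposite order.

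Inhibition of LRRK2 under fibrils was compared with fibrils alone. In height 0 exonic regions passed the limma test between PFF+MLi-2 and PFF, where 0% of all regions passed. At an unadjusted p under 0.05 there were 210 (12.1%), against 11.4% of all regions. Stat2 had the largest difference among the 3 members with the lowest p-values. Its tandem-repeat exon ranked at 80.3, 87.8 and 69.5 in PBS, 48.8, 49.99 and 33.6 in PFF, 87.0, 92.0 and 88.8 in PFF+MLi-2, then 88.8, 61.2 and 71.0 in PFF+Rab5 ASO. All 3 PFF libraries were thus below the other 9. Between PFF+MLi-2 and PFF, 16.0% of exonic and 17.7% of all regions tested had no overlap. The difference was 2.00 ± 0.20 for PFF+MLi-2 against PFF (limma adjusted p = 0.124) and -1.39 ± 0.27 for PFF against PBS (adjusted p = 0.217), and neither passed. Fam53a, a nuclear protein, differed by 1.67 ± 0.20 (adjusted p = 0.124) and Ppp1r3b, a glycogen-targeting subunit of protein phosphatase 1, by 1.25 (adjusted p = 0.184).

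In presence, PFF+MLi-2 against PFF gained 21 and lost 117 of 5867 exonic regions (0.358% and 1.99%), where all regions gained 0.374% and lost 1.64%. With equal numbers of top peaks the counts were 38 gained and 56 lost. Of the 117 lost regions 50 lay in coding sequence and 51 in 3′ UTRs. The coding exon of Cd200r4 ranked at 55.6, 77.4 and 63.5 in PFF and had a peak in 1 PBS library and in no PFF+MLi-2 or PFF+Rab5 ASO library. Klf3, a transcriptional repressor, had a region in every PBS, PFF and ASO library and in no PFF+MLi-2 library, in an exon of a non-coding transcript. Med13 of the Mediator complex and Ewsr1, an RNA-binding protein, were lost in the same way from their 3′ UTR and coding exon 4. Regions gained were led by Oxgr1 and Mtx3 again, with Aldh1a1, a retinaldehyde dehydrogenase, and Grin3a, an NMDA receptor subunit.

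The comparison with fibrils alone uses the same 3 PFF libraries as the comparison of fibrils with buffer, so their mirrored counts are not independent. Of the 90 regions gained in PFF over PBS, 37 (41.1%) had no peak in any PFF+MLi-2 library and 3 (3.33%) had one in all 3, against 42.1% and 4.78% of all 2385 regions gained. With the Rab5 ASO 40 (44.4%) had no peak and 14 (15.6%) had one in all 3 libraries, against 42.7% and 18.3% of all regions gained. The exonic shares were thus near those of all regions. PFF+MLi-2 against PBS does not use the PFF libraries. There 0 exonic regions passed in height (0% of all regions), 6.21% had an unadjusted p under 0.05 against 5.77% of all regions, and D6Wsu163e, Fam53a and Tmtc1 had the lowest p-values (limma adjusted p = 0.815 each). In presence 11 exonic regions were gained and 23 lost of 5512 (0.200% and 0.417%), against 0.225% and 0.577% of all regions. The balance turned to 18 gained and 16 lost with equal numbers of top peaks, and to 56 gained and 46 lost without PBS replicate 1. Among the regions lost were a 3′ UTR region of Acap2, an Arf6 GTPase-activating protein of endosomes, and a coding region of Klhl41, and among those gained coding exons of Col28a1 and Pkhd1l1 and the 3′ UTRs of Sfxn4 and Gm36210.

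Exonic regions that passed the test of height were found with the Rab5 ASO. Against PFF 53 of 1740 exonic regions passed, against 3.83% of all 72465 regions. The exonic share was 3.05%. Of these 20 were higher in PFF+Rab5 ASO (1.15%, against 1.97% of all regions) and 33 lower (1.90%, against 1.86% of all regions). In each of the 53 the 3 ASO libraries did not overlap the 3 PFF libraries, which goes along with being called, and 22.3% of exonic and 25.9% of all regions tested had no overlap. Effects ran from 0.89 to 1.48 in those that rose and from -0.86 to -1.92 in those that fell, with limma adjusted p-values from 0.0152 to 0.04995. The median effect was -0.06 over exonic regions and 0.01 over all regions, and with scores centred within bins of GC content, a setting chosen after seeing the data, -0.02 and 0.01. The count rests on few libraries: leaving out each in turn left 0 to 19 calls, with 0 without PFF+Rab5 ASO replicate 1, 6 without PFF+Rab5 ASO replicate 3 and 8 without PFF replicate 3. With the replicate number as a block there were 31 calls.

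The regions that fell lay mostly in coding sequence. Of 641 coding regions tested 5 rose and 22 fell (0.780% and 3.43%), with a median effect of -0.11 (-0.07 with GC-centred scores). Of 791 in 3′ UTRs 8 rose and 8 fell, of 282 in exons of non-coding transcripts 7 rose and 3 fell, and of 26 in 5′ UTRs 0 did either. For comparison 2.198% of intronic regions rose and 2.60% fell, and 0.867% and 0.588% of promoter regions. GC content went along with direction: the median was 52.7% in the exonic regions that fell and 45.0% in those that rose. When scores were centred within 20 bins of GC content, coding regions had 5 calls up and 12 down and the exonic total was 15 up and 20 down. Against PFF more coding regions fell than rose under each of the 5 scalings and models of the scores tried, with 14 down and 2 up for ranks of -log10 p, 15 down and 2 up for the replicate block and 24 down and 7 up for log2 fold. No test compares these positions with each other.

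**Figure D4:**
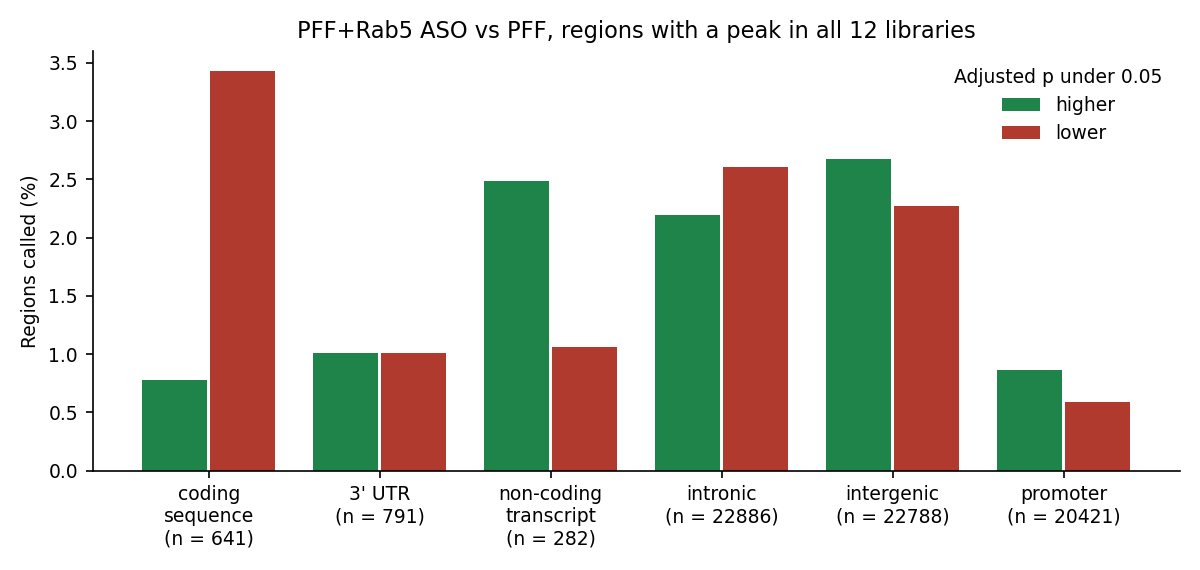
Bars give the percent of regions, among those found in all 12 libraries, that were higher or lower in PFF+Rab5 ASO than in PFF at a limma adjusted p under 0.05, by position, with the number tested under each label. Coding regions show 0.780% higher and 3.43% lower, and the 3′ UTR bars are equal at 1.01%.

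Gsap, which encodes γ-secretase activating protein, had the largest fall. Its region in an annotated 3′ UTR at chr5:21314749-21315038 ranked at 91.8, 87.0 and 90.8 in PBS, 92.3, 94.7 and 93.5 in PFF, 89.4, 86.5 and 89.0 in PFF+MLi-2, then 65.6, 61.2 and 31.0 in PFF+Rab5 ASO. All 3 ASO libraries were thus below the other 9. The effect was -1.92 ± 0.25 against PFF (limma adjusted p = 0.0152) and -1.66 ± 0.26 against PBS (adjusted p = 0.0271). Fragments at the summit numbered 23 to 29 in the other groups and 12 to 17 in PFF+Rab5 ASO.

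Macf1, whose exon 54 is printed above, fell in both comparisons as well. Its percentile was 91.8, 74.6 and 67.7 in PBS, 76.9, 73.6 and 72.2 in PFF, 65.1, 77.0 and 62.2 in PFF+MLi-2, then 29.1, 28.3 and 31.0 in PFF+Rab5 ASO, with all 3 ASO libraries below the other 9. The effect was -1.42 ± 0.19 against PFF (limma adjusted p = 0.0152) and -1.74 ± 0.29 against PBS (adjusted p = 0.0300). Rab10, a GTPase of endosomes and a substrate of LRRK2, fell in its 3′ UTR at chr12:3248118-3248392, from 78.8, 80.4 and 71.9 in PBS and 61.3, 74.3 and 63.5 in PFF to 29.1, 28.3 and 31.0 in PFF+Rab5 ASO. Its effects were -1.09 ± 0.22 against PFF (adjusted p = 0.0315) and -1.60 ± 0.22 against PBS (adjusted p = 0.0268). The ASO values of Macf1 and Rab10 are equal, and both had 12, 11 and 12 fragments there.

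Tmc5, printed above, fell from 81.7, 86.1 and 85.1 in PFF to 48.0, 39.3 and 57.6 in PFF+Rab5 ASO, by 1.43 ± 0.23 (limma adjusted p = 0.0187). Dtl, a substrate receptor of a ubiquitin ligase in the cell cycle, fell in coding exon 14 of 15 by 1.48 ± 0.22 (adjusted p = 0.0166). Ppic, a cyclophilin, Tmem260 and Tesc, a regulator of sodium-proton exchange, were also among the largest falls. Leaving out 1 library at a time kept the call against PFF in 5 of 6 repeats for Gsap and Macf1, in 4 for Ppic, in 3 for Dtl and Tmc5, in 1 for Tesc and in 0 for Tmem260. The calls of Gsap, Macf1 and Rab10 against PBS were kept in 0 of 6 repeats.

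Among the regions that rose Hapln4, a link protein of perineuronal nets, did so in both comparisons. Its 3′ UTR region at chr8:70089422-70089943 ranked at 14.9, 35.5 and 11.8 in PBS, 24.5, 35.9 and 15.7 in PFF, 6.11, 22.3 and 3.10 in PFF+MLi-2, then 74.1, 67.8 and 69.6 in PFF+Rab5 ASO. The 3 ASO libraries, with 32 to 38 fragments, were above the other 9, with 16 to 23. The effect was 1.43 ± 0.20 against PFF (limma adjusted p = 0.0152) and 1.48 ± 0.26 against PBS (adjusted p = 0.0313), of which the first was kept in 5 of 6 repeats with a library left out and the second in 0.

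Copg2, a subunit of the COPI vesicle coat, had the largest rise against PFF, from 35.7, 72.1 and 48.2 to 86.6, 87.6 and 88.6 in its 3′ UTR (1.48 ± 0.30, limma adjusted p = 0.0334). Rab3b, a GTPase of synaptic vesicles, rose in its 3′ UTR from 64.6, 26.5 and 41.3 in PFF to 81.0, 83.3 and 79.6 (1.35 ± 0.27). Wdr49, printed above, rose from 55.6, 70.8 and 51.5 to 87.8, 86.5 and 88.1 (1.26 ± 0.22). Cdh8, a cadherin of neuronal circuits, rose in a coding exon, from 69.2, 29.9 and 49.8 in PBS and 70.2, 62.1 and 51.5 in PFF to 87.8, 89.8 and 84.1, in both comparisons (1.18 ± 0.21 against PFF and 1.48 ± 0.26 against PBS). Ccl1, a chemokine, Hes7, a repressor of the Notch pathway, and Zbtb40, a zinc finger protein, completed the 8. With 1 library left out at a time, Copg2, Rab3b, Wdr49, Cdh8, Hes7 and Zbtb40 kept the call against PFF in 1 of 6 repeats and Ccl1 in 0, and Cdh8 kept that against PBS in 0. Hes7 shows the limit of the scale: it held 30 to 48 fragments in every library but ranked between 0.0332 and 7.44, since its local background was high.

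**Figure D5:**
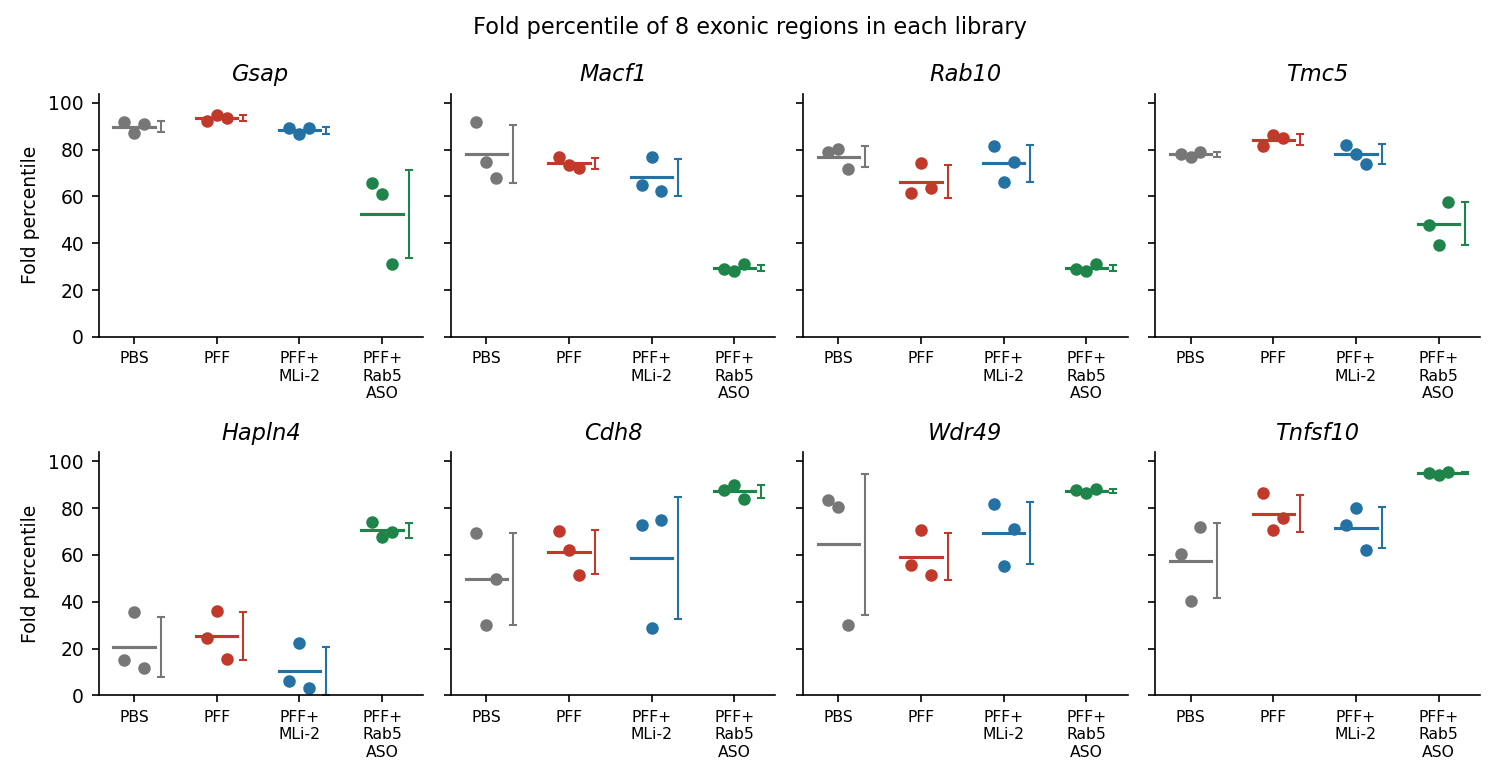
Each point is the fold percentile (0 to 100, vertical axis) of the exonic region of the named gene in 1 library, in 4 groups of 3 libraries, with the group mean as a horizontal line and ± 1 SD as the bar beside it. In the upper row the 3 PFF+Rab5 ASO libraries lie below the other 9, and in the lower row they lie above them.

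Against PBS 18 exonic regions passed with the Rab5 ASO (1.03%), against 1.63% of all regions. Of these 8 were higher (against 1% of all regions) and 10 lower (against 0.631%). In coding sequence 4 rose and 5 fell, and this order turned to 3 up and 2 down with GC-centred scores, while ranks of -log10 p gave 1 each way and log2 fold 4 up and 15 down. In 3′ UTRs 3 rose and 4 fell, and in exons of non-coding transcripts 1 did each. Leaving out any one library left 0 or 1 of the calls, and with the replicate number as a block in the limma model 0 exonic and 0 of all 72465 regions passed. Both comparisons use the same ASO libraries, and 11 regions passed in both, which is 20.8% of the calls against PFF and 61.1% of those against PBS. Tnfsf10, the death ligand TRAIL, had the largest rise. It ranked at 60.4, 40.5 and 71.9 in PBS, 86.3, 70.8 and 75.7 in PFF, 73.0, 79.9 and 62.2 in PFF+MLi-2, then 95.1, 94.3 and 95.3 in PFF+Rab5 ASO in its last coding exon. Its effect was 1.87 ± 0.26 against PBS (limma adjusted p = 0.0271) and 1.11 ± 0.23 against PFF (adjusted p = 0.0354).

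Other rises against PBS were in Ly6h, a modulator of nicotinic receptors (1.49 ± 0.22), Prr15l (1.49 ± 0.30), Exoc3 (1.14 ± 0.23, from 48.0, 49.3 and 49.8 to 86.0, 79.8 and 72.3), Ttll5, a tubulin glutamylase (1.13), and Hdac9, a histone deacetylase (1.06 ± 0.22), with limma adjusted p-values of 0.0271 to 0.0479. Prr15l and Hdac9 had about the same values in PFF as in PFF+Rab5 ASO, with differences of 0.10 and 0.0056 between these groups, while PFF exceeded PBS by 1.38 and 1.05 without passing (adjusted p = 0.224 and 0.261). Falls against PBS were led by Macf1, Gsap, Camsap2, a protein of microtubule minus ends (-1.61 ± 0.29), and Rab10. Hes3, a repressor of neural progenitors, fell by 1.43 ± 0.25, and Slc13a3 and Ss18l2 by 1.25 and 1.20.

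In presence the exonic regions and the whole differed in their larger side. PFF+Rab5 ASO against PFF gained 121 and lost 152 of 6567 exonic regions (1.84% and 2.31%), whereas all regions gained 2.64% and lost 1.94%. By position the coding regions had 26 gained and 60 lost, the 3′ UTR regions 61 and 64, and the exons of non-coding transcripts 32 and 23. With equal numbers of top peaks the exonic counts were 84 and 148. Without PFF+Rab5 ASO replicate 3 they were 215 gained and 179 lost, and in the other 5 repeats with a library left out more were lost. Over all regions the larger side turned without PFF replicate 3, to 7112 gained and 8366 lost. The median GC content was 43.3% in the regions gained and 51.7% in those lost.

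Against PBS 131 exonic regions were gained and 59 lost of 6253 (2.09% and 0.944%), where all regions gained 2.59% and lost 0.991%. This balance depended on the peaks taken, with 95 gained and 99 lost for equal numbers of top peaks, and with 156 gained and 169 lost without PBS replicate 2. Csmd1, a complement regulator of synapses, Ror1, a Wnt receptor, and Dnajb4, a heat shock protein of the HSP40 family, had a peak in every ASO library and in none of the other 9. Csmd1 ranked at 76.4, 55.4 and 68.2, Ror1 at 73.3, 61.2 and 50.4 and Dnajb4 at 73.3, 48.3 and 63.3. Rfx3, a transcription factor of ciliogenesis, had the same pattern in its 3′ UTR. The reverse was seen in coding exon 23 of Akap13, printed above, which ranked at 72.9, 49.3 and 62.8 in PBS, 66.04, 80.1 and 78.8 in PFF and 54.6, 66.03 and 62.2 in PFF+MLi-2. It had no peak in any ASO library. Fbh1, a DNA helicase, was also present in the other 9 libraries and in no ASO library.

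Members were also counted in lists of genes that fit the tissue and treatment. Of 41 annotated genes of the early endosome, the LRRK2 pathway and the Rab GTPases tied to them, a list that leaves out Rab3b, 11 had a member, with 19 members and 7 of them in all 12 libraries. Rab10 fell in both ASO comparisons, as given above, and 0 of the others on the list passed in any comparison. Rab8a, another Rab substrate of LRRK2, Rin2, an exchange factor for Rab5, and Lrrk1, the paralogue of LRRK2, had the highest members. Rab8a stood at 80.2 to 91.1 across the 12 libraries and Lrrk1 at 60.7 to 88.9. Of 38 lysosomal genes 12 had a member, 4 of 22 in all 12 libraries, and 0 passed in any comparison. Plekhf1, a lysosome-associated protein of apoptosis, Gusb, β-glucuronidase, and Npc2, a cholesterol carrier, were the highest, all in 3′ UTRs.

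Genes of synapses and excitability had members in 35 of 54 cases, 74 in all and 14 in every library, and 0 passed. Among the highest were Scn8a, a sodium channel, whose coding exon 12 ranked at 86.6 to 94.6, and Unc13a, a priming factor of synaptic vesicles. Cortical and neuronal transcription factors had 44 members in 18 of 45 genes, led by coding exon 2 of Sox5, a regulator of deep-layer neurons, and 0 of 5 tested passed. Neuronal activity genes had 10 members in 7 of 22 genes, with only the neuronal pentraxin Nptx2 in all 12 libraries. Chromatin regulators had 63 members in 29 of 43 genes and 11 in all 12 libraries. Of these Hdac9 was higher in PFF+Rab5 ASO than in PBS, with about the same values in PFF as in PFF+Rab5 ASO, as given above. The extracellular matrix list had 46 members in 23 of 35 genes, 9 of them found in all 12 libraries, among them coding exon 45 of Lama5, a laminin chain, and the 3′ UTR of Bcan, the proteoglycan brevican.

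Of 28 genes of senescence, cell cycle, TGF-β signalling and related transcription factors, 7 had a member. None of their 4 members in all 12 libraries passed the limma test in any comparison. They were led by Tgif2, a corepressor of SMAD signalling, Creb5, a transcription factor, and Rb1, the retinoblastoma protein, whose coding exon 25 ranked at 67.1, 56.2 and 41.0 in PBS and 72.7, 70.8 and 72.2 in PFF. The study drew attention to part of this list, and to Plekhf1 above, from its own measurements of neurons treated in these ways, so the list is not independent of the study. In every list the share of members called can be read only against the background shares given above, and lists of this size hold too few members to compare with it.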

How the data were processed

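Chromatin accessibility was measured by ATAC-seq in 12 libraries of mouse cortical neurons. The submitters' processing notes name Trim Galore 0.6.7, Bowtie2 2.5.1, GRCm38 and MACS2 2.2.7.1. Bowtie2 ran with default settings and peaks were called per library without a control library. How duplicates, read shifts and MACS2 options were handled is not given in the sources used here. The deposited peak lists give a score (10 times −log10 q), the ratio of the summit to local background (fold), and the authors' −log10 p-value and −log10 q-value from MACS2. Of 1916151 peaks, 1440 (0.0752%) lay outside chromosomes 1 to 19, X and Y. Fragments at each summit were recovered from p and fold, and 100% were whole within 0.01.

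Exons and TSSs came from GENCODE vM21, and sequence from GRCm38. Peaks were merged, and a region's value in a library was that of its highest peak, ranked by fold. Normal scores of ranks were fitted with limma 3.58.1 (R 4.3.3) over regions with a peak in all 12 libraries, separately for each comparison on the 6 libraries of its 2 groups, with Benjamini-Hochberg adjustment over all these regions. Region classes were compared by exact sign-flip tests and library shares by exact permutation tests in Python 3.11.15 (numpy 2.4.6, pandas 2.3.3, scipy 1.17.1). The fit was tested on simulated data. Named regions were those with the largest effects among calls, the highest ranks among regions gained or lost, the lowest p where none passed, the highest and widest members, and the highest in each gene list, which let Stat2 and others enter by more than 1 route. Where a gene's region was printed as sequence, only stretches without UTR were used. A few regions that the rule names are not reported here. Members and gene lists were chosen with earlier results of these data known. Tables of motifs and of base composition were made in the same way for every class of region. The alternatives tried were other scores, stricter peaks, other distances and overlaps, GC-centred scores, a replicate block and leaving out each library. The design text calls the replicates biological, with no further detail, so p-values measure the spread between these libraries.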

Additional observations from a re-analysis of the deposited data

How the results depend on the processing

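The limits are few libraries per group, unknown read totals and MACS2 options, and ranks that cannot show a change shared by all regions. With PFF+Rab5 ASO against PFF, the 53 exonic calls became 64 (25 higher, 39 lower) with log2 fold, 35 (10 higher, 25 lower) with ranks of −log10 p, 31 (9 and 22) with the replicate block, 35 (15 and 20) with scores centred on GC content (chosen after seeing the data), and 0 to 19 with 1 library left out. Against PBS the 18 calls became 5 with ranks of −log10 p, 40 (13 higher, 27 lower) with log2 fold, 0 with the replicate block, 11 (6 and 5) with GC-centred scores and 0 to 1 with 1 library left out. The cause of these changes was not tested, and the fits that left a library out also had fewer libraries. The other 3 comparisons had 0 calls under every setting run, with 142 to 183, 162 to 208 and 109 to 124 exonic regions at an unadjusted p under 0.05 when a library was left out.

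The counts of regions gained plus lost moved by construction when a rule was relaxed. Asking for 2 of 3 libraries gave 474 for PFF against PBS, 506 for PFF+MLi-2 against PFF, 285 for PFF+MLi-2 against PBS, and 748 and 659 for PFF+Rab5 ASO against PFF and PBS. Leaving out 1 library gave 183 to 241, 227 to 268, 85 to 136, 384 to 413 and 294 to 332 in the same order. The difference in width between exonic and intronic peaks was 0.167 bp, reversed in sign, when distance to a TSS was taken from the region's centre (adjusted p = 0.844), and -1.42 bp with a distance of 2 kb (adjusted p = 0.0352, exact sign-flip test). The number of exonic regions itself ran from 6163 to 9420. Libraries of the same replicate number correlated in their deviations at 0.0051 to 0.0788. In 4 of 5 comparisons these correlations lay above all those between different numbers. The labels do not say that a number marks a shared litter. The study took each pregnancy as a replicate, and whether numbers mark litters was not tested. Apart from the block, the fits used no pairing. Under the block 14 of the 16 regions named for their change against PFF kept an adjusted p under 0.05 in limma, the exceptions being Tmem260 (0.0559) and Zbtb40 (0.0520), and none of those named against PBS did (0.0736 to 0.0930).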

Other observations

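Of 388 annotated genes of zinc finger proteins, with symbols starting with Zfp, 66 (17.0%) had an exonic region, against 23.8% of all protein-coding genes. They had 95 regions in all, and 23 of these had a peak in all 12 libraries. None of the 23 passed the limma test in any of the 5 comparisons. The highest were in Zfp169, in an exon of a non-coding transcript at 91.8 to 98.1 percentile across the 12 libraries, in Zfp697, in a coding exon 892 bp wide at 89.1 to 96.7, and in Zfp771, in a coding exon 970 bp wide at 86.6 to 92.0. The stretch around the summit of Zfp771 was 74.6% G or C with 33 CpG dinucleotides.

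Genes of the homeobox clusters had a single exonic region in 39 genes, in the 3′ UTR of Hoxb8, which had a peak in 10 of the 12 libraries.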
